A study of Rattus norvegicus with 12 samples.

Results

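The subunits of the mitochondrial respiratory chain were followed across 4 groups of rat tissue. A gene was a member by the form of its symbol, and the choice used names only. The names were those of nuclear-encoded subunits of complex I (Ndufa, b, c, s or v), complex II (Sdha to Sdhd) and complex III (Uqcr and Cyc1). They also covered cytochrome c (Cycs), complex IV (Cox4 to Cox8) and ATP synthase, called complex V (Atp5). By name, the regulators Atp5if1, an inhibitor of ATP synthase, and Cox7a2l, which helps to join complexes III and IV, were taken in. They were counted in complexes V and IV. Of 17379 features counted, 80 were members, with 31 in complex I, 4 in complex II, 9 in complex III, 1 as cytochrome c, 19 in complex IV and 16 in complex V. Ndufa4 and Ndufa4l2 were placed in complex IV, where the Ndufa4 protein is now known to sit. A total of 78 members passed the filter on low counts; the testis form Cox8c had 1 read and the pseudogene Cox6c-ps1 had 2 reads over all libraries, and both stayed out of the tests. Cox7a1, Atp5mc3, Ndufa3, Ndufa8, Ndufb1, Ndufc1 and Ndufs6 were not analysed here.

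The respiratory chain sits in the inner mitochondrial membrane. Complex I takes electrons from NADH and complex II takes them from succinate, complex III passes them to cytochrome c, and complex IV hands them to oxygen, while complex V uses the resulting proton gradient to make ATP. Most subunits are made from nuclear genes in every cell with mitochondria, but several complex IV subunits have a form used in heart and skeletal muscle (Cox6a2, Cox8b), and a few subunits are known to change with low oxygen (Cox4i2, Ndufa4l2). The clot that fills a bone defect is cut off from vessels at first, and the cells that later enter it bring their own mitochondrial content.

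The libraries came from male SAS Fischer rats of 200 to 225 g, with 3 libraries in each group. The hematoma filled a femoral defect that was 0.5 mm wide in the normal healing group, 1.5 mm wide in the group with delayed healing and 5.0 mm wide in nonunion, and the preOP group was untreated bone cut out of the femur when the 5.0 mm defects were made. No genotype or agent differed between groups, the time of hematoma collection is not given in the sources used here, and nothing says that the libraries come from separate animals, so the p-values measure the spread between these samples, which may be technical. PreOP differs from the hematomas in tissue as well as in injury.

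Library totals ran from 16808984 to 24325144 reads, and 11449 to 12450 genes per library had at least 10 reads. The library nonunion 2 stood apart because ribosomal RNA took 72.2% of its reads, a share of 1.75% or less in the other libraries. The library delayed 2 stood apart in 17 skeletal muscle markers, which summed to 78414 counts per 1e6 reads (CPM), where the sum lay between 651 and 5031 in normal, at 229 and 1385 in the other delayed libraries, between 1102 and 7178 in nonunion and between 7393 and 14774 in preOP, with none of the 17 at 0 in any library. The 3 normal files had another number format from the rest: between 16.8% and 18.1% of their read numbers were written with a decimal point, where in the other files all were, and effective lengths fell short of transcript lengths by a median of 157.2 to 191.6 bases, where the other files had 194.3 to 254.6. This difference follows the normal group exactly, so it cannot be told apart from normal healing. Adipocyte markers (10 genes) summed to 15387 CPM in nonunion 2 and at most 1820.2 elsewhere. Erythroid markers (9 genes) reached 114584 to 193481 CPM in preOP against 962 to 19648 in the hematomas.

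The members with the highest levels belonged to complexes IV and V, and which came first depended on the group. On the scale of reads per kilobase of effective length per 1e6 reads (RPKM), used for all levels below, the highest group mean was that of the ATP synthase epsilon subunit Atp5f1e in normal, at 1209.7 ± 596 (SD, n = 3), of the catalytic beta subunit Atp5f1b in delayed, at 1152 ± 1109, of Cox6b1 in nonunion, at 722 ± 200.2, and of Atp5f1b in preOP, at 805 ± 42.2. Over all 12 libraries Cox6c averaged 846, Atp5f1b 831 and Atp5f1e 805, but Cox6c was first in no group, and without delayed 2 Atp5f1e, at 767, was above Cox6c, at 727. Over the 12 libraries the hinge protein Uqcrh of complex III averaged 502 and Uqcr10 452, and in complex I Ndufa1 averaged 323 and Ndufa13 297. Complex II was lower, with its membrane anchors Sdhd and Sdhc at 163 and 154, and cytochrome c (Cycs) averaged 280.1. The lowest tested members were restricted forms: Cox6b2, known from testis, at 5.80, Cox4i2 at 23.1 and Ndufa4l2 at 28.6.

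Summed by complex, the chain was most even in preOP bone and least even in the hematomas of delayed healing. The 31 complex I subunits together reached 4860.1, 9437 and 4559 RPKM in normal libraries 1 to 3, 2856, 8791 and 2946 in delayed, 3813, 3221 and 4657 in nonunion and 3686, 3924 and 4145 in preOP. A pair of libraries therefore stood far above the others, normal 2 and delayed 2, and delayed 1 and 3 were the lowest of the 12. Complex IV also had normal 2 and delayed 2 at the top, with 6629, 12469 and 6026 in normal, 4023, 14285 and 3811 in delayed, 4974, 3929.9 and 6387 in nonunion and 5537, 5772 and 5638 in preOP, and there nonunion 2 lay below delayed 1. Complex V reached 8039, 14748 and 7080.2 in normal, 5160.1, 16638 and 5102 in delayed, 6737, 4654 and 8356 in nonunion and 7026, 7269 and 7172 in preOP. In complex V nonunion 2 was the lowest of the 12, and the lowest normal library was above delayed 1, delayed 3, nonunion 1 and nonunion 2 and lay within the preOP range.

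Complex III followed these with 1847, 3832 and 2088 in normal, 1279, 3737 and 1222 in delayed, 1728, 1288 and 2021 in nonunion and 1621, 1784 and 1679 in preOP. Complex II differed in its order: it reached 448, 747 and 484 in normal, 412, 1407 and 368 in delayed, 507, 414 and 572 in nonunion and 412, 425 and 369 in preOP, so delayed 2 was well above normal 2. The mean sum over all 80 members was 28045 ± 11746 RPKM (SD, n = 3) in normal, 24428 ± 18520.1 in delayed, 17956 ± 4316 in nonunion and 19039 ± 459.8 in preOP. The group ranges of these sums overlapped among the 3 hematoma groups. In bulk tissue, fewer cells rich in mitochondria and less subunit RNA per cell cannot be told apart.

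**Figure D1:**
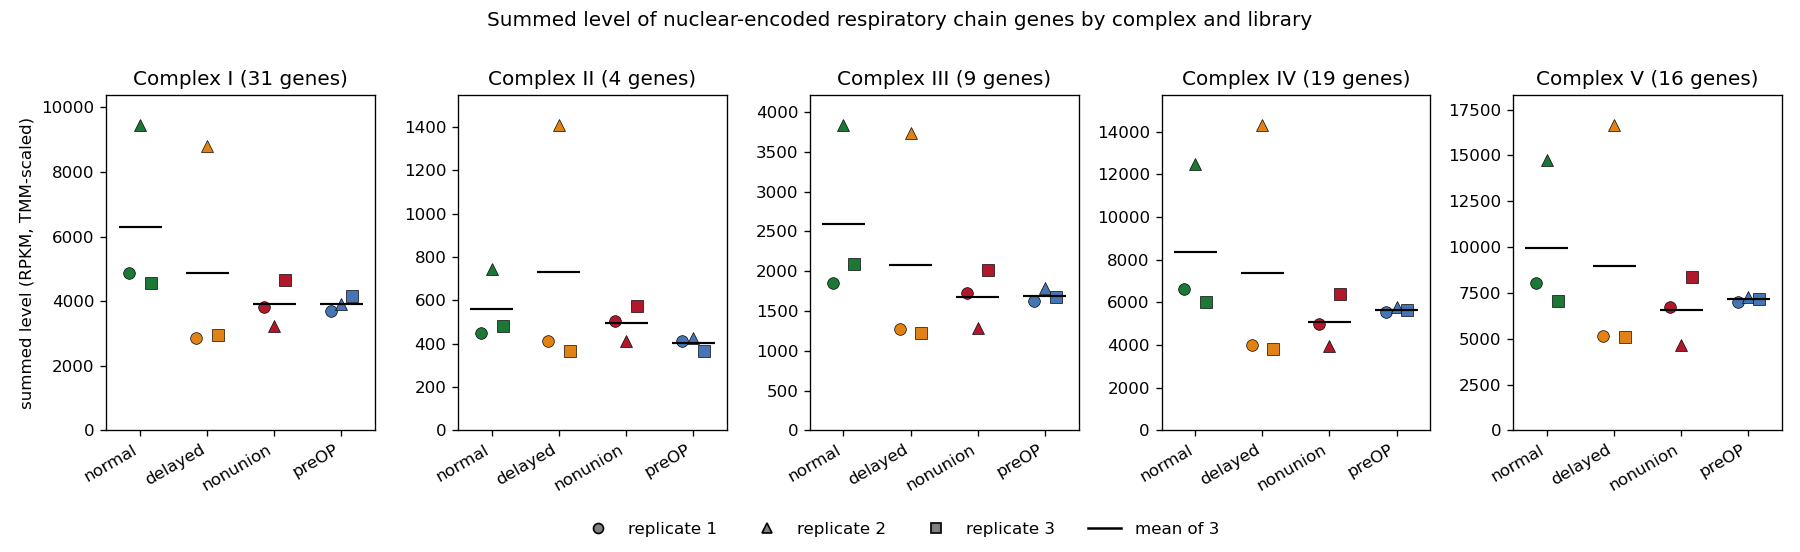
Summed level of each respiratory complex in RPKM (vertical axis) by group, with a point for each library and a line for the mean of 3. Normal 2 and delayed 2 lie far above the other libraries of their groups in complexes I, III, IV and V, and the 3 preOP libraries lie close together.

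Normal 2 and delayed 2 together held the highest CPM of 77 of the 78 tested members, normal 2 for 44 and delayed 2 for 33, and the remaining one, Ndufa4l2, was highest in delayed 3. The lowest value lay in delayed 3 for 40 members, in delayed 1 for 15 and in nonunion 2 for 11. Within normal, 76 members were above the mean of libraries 1 and 3 in library 2, with a median log2 ratio of 0.96 (0.1 RPKM added to each level), against 0.07 over all 12846 genes tested. Only the large complex I subunit Ndufs1, at -0.34, and the complex III core protein Uqcrc2, at -0.13, were below. This excess of normal 2 moved with transcript length in all genes: for effective lengths under 500 bases the median was 1.03 in 45 members and 0.75 in 622 genes, and for 1000 bases and over it was 0.84 in 14 members and 0.0 in 10654 genes. The part of length in the members' excess was not tested.

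Delayed 2 differed in another way. Here 72 of 78 members were above the mean of delayed 1 and 3, with a median log2 ratio of 1.66 against -0.04 over all genes, and the longest members were not below the shortest: the median was 1.98 for 1000 bases and over and 1.41 under 500 bases. The muscle forms Cox8b, at 7.89, and Cox6a2, at 6.72, had by far the largest ratios. They were followed by Ndufs1 at 3.02, Ndufa4 at 2.92 and Cycs at 2.70. The 6 members lower in delayed 2 were Cox6b2 (-2.44), Cox4i2 (-1.50), Ndufa4l2 (-1.26), Cox6a1 (-0.60), the ATP synthase inhibitor Atp5if1 (-0.29) and Cox8a (-0.27). Muscle markers were highest in this library, as given above, and their part in the members' levels was not tested.

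**Figure D2:**
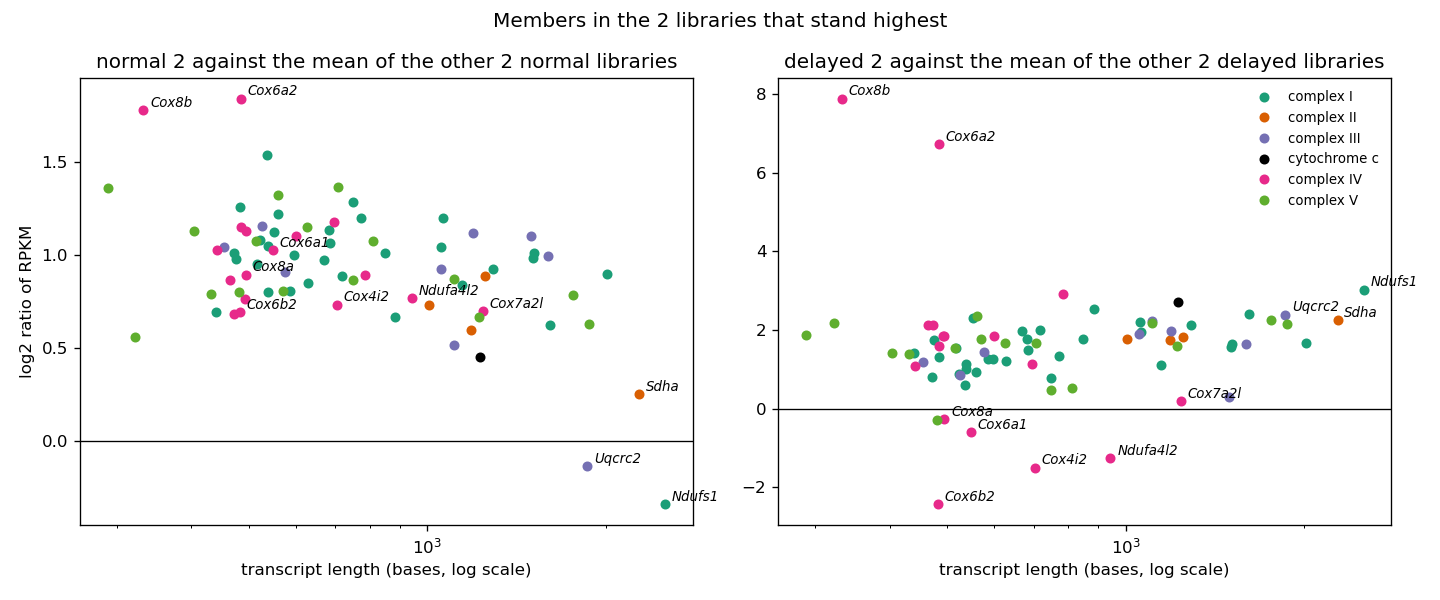
Log2 ratio of RPKM in one library to the mean of the other libraries of its group (vertical axis) against transcript length in bases on a log scale (horizontal axis), for each tested member, colored by complex. In normal 2 nearly all members lie near 1, while delayed 2 spreads from below 0 to the muscle forms Cox8b and Cox6a2 at the top.

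The complex IV isoform pairs are given as shares of RNA in each bulk library, and the cells that the RNA came from were not told apart. Cox8b and Cox8a are alternatives for the same small subunit, the first found in muscle and the second in most tissues. Cox8b was at 35.9, 85.2 and 13.7 RPKM in normal, 0.903, 1944 and 15.3 in delayed, 71.3, 16.5 and 81.6 in nonunion and 221, 231 and 227 in preOP. It thus made up 48.9%, 52.2% and 48.4% of the pair in preOP bone but 5.51%, 6.69% and 2.02% in normal, 22.9%, 5.95% and 18.1% in nonunion and 0.377%, 91.5% and 7.12% in delayed hematoma. Every hematoma library except delayed 2 was below the 3 preOP libraries in this share. Cox6a2 and Cox6a1 form the other such pair, and Cox6a2 was at 93.5, 222 and 29.9 RPKM in normal, 1.85, 973 and 16.4 in delayed, 97.7, 6.71 and 72.9 in nonunion and 125, 172 and 195 in preOP. Its share of the pair was 30.4%, 36.2% and 33.1% in preOP, 11.1%, 12.8% and 3.96% in normal, 0.647%, 84.1% and 5.68% in delayed and 24.3%, 2.47% and 14.1% in nonunion, so preOP was again above every hematoma library but delayed 2. The summed muscle markers were also higher in the preOP libraries than in every hematoma library other than delayed 2. The gap was small, with 7393 CPM in preOP 3 against 7178 in nonunion 1. Single markers did not all keep this order: Acta1 was at 2187 CPM in nonunion 1 and at 1479, 2308 and 1627 in preOP. By edgeR, 0 of the 17 markers were called in any comparison, where between 0% and 42.6% of all genes were called. This does not show equal muscle content. All 17 were below 0 in normal against preOP, with a median log2 fold change of -3.27. All 17 were above 0 in delayed against normal, delayed 2 included, with a median of 3.62. The part of muscle in the shares was not tested.

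The promoters of the pair Cox8a and Cox8b, and of Cox6a2, are shown because the muscle forms Cox8b and Cox6a2 spread most widely over the libraries while Cox8a, which takes the place of Cox8b in most tissues, spread little outside the normal group. Each sequence is the 250 bases before the RefSeq start of the gene on GRCr8, read 5′ to 3′ on the gene's strand. Capitals in Cox8a mark the ETS core CCGGAAG on either strand, a motif bound by GABP (NRF-2), a known activator of respiratory genes, and capitals in Cox8b and Cox6a2 mark the E-box CANNTG, bound by MyoD and many other factors.
Cox8a (chr1:213833624-213833873, minus strand): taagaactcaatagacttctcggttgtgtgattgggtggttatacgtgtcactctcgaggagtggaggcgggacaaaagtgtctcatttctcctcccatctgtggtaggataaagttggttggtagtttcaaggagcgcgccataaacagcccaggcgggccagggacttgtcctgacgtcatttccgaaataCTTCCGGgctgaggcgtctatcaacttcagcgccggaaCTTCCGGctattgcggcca
Cox8b (chr1:205408274-205408523, minus strand): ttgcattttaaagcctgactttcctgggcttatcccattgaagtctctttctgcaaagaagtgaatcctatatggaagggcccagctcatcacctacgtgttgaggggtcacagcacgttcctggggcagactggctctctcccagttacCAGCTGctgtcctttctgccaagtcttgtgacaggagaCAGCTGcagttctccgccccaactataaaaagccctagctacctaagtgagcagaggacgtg
Cox6a2 (chr1:192219717-192219966, minus strand): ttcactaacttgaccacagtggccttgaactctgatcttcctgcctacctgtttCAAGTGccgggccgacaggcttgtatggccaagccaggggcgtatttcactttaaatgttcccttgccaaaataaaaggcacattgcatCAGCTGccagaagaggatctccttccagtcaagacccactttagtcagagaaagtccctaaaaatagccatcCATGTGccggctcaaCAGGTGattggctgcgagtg
The Cox8a window held 2 ETS cores and the Cox8b and Cox6a2 windows held none, while they held 2 and 4 E-boxes and Cox8a held 1. An E-box of this spelling is common, so a match is a description only.

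Other pairs moved otherwise. Cox4i2, the form of subunit 4 known from lung and low oxygen, made up 0.474%, 0.651% and 0.544% of its pair with Cox4i1 in preOP and more in every hematoma library, with 6.16%, 5.26% and 8.02% in normal, 3.29%, 1.11% and 9.59% in delayed and 3.37%, 0.967% and 2.60% in nonunion. Ndufa4l2, a target of the oxygen-sensing factor HIF-1, made up 0.52%, 1.04% and 1.85% of its pair with Ndufa4 in preOP, 7.49%, 6.95% and 7.56% in normal, 19.8%, 3.63% and 53.5% in delayed and 8.90%, 5.45% and 8.54% in nonunion. In delayed 3 the Ndufa4l2 transcript was thus about as abundant as Ndufa4 itself. Cox6b2 stayed a minor form beside Cox6b1, between 0.0362% and 1.54% in all 12 libraries. Atp5mc1 and Atp5mc2 encode the same c subunit of the ATP synthase ring, and the share of Atp5mc1 was 45.6%, 42.3% and 45.1% in preOP, 25.9%, 31.7% and 24.7% in normal, 32.8%, 63.6% and 31.2% in delayed and 33.9%, 27.7% and 34.5% in nonunion. Delayed 2 was the only hematoma library in which Atp5mc1 exceeded Atp5mc2.

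**Figure D3:**
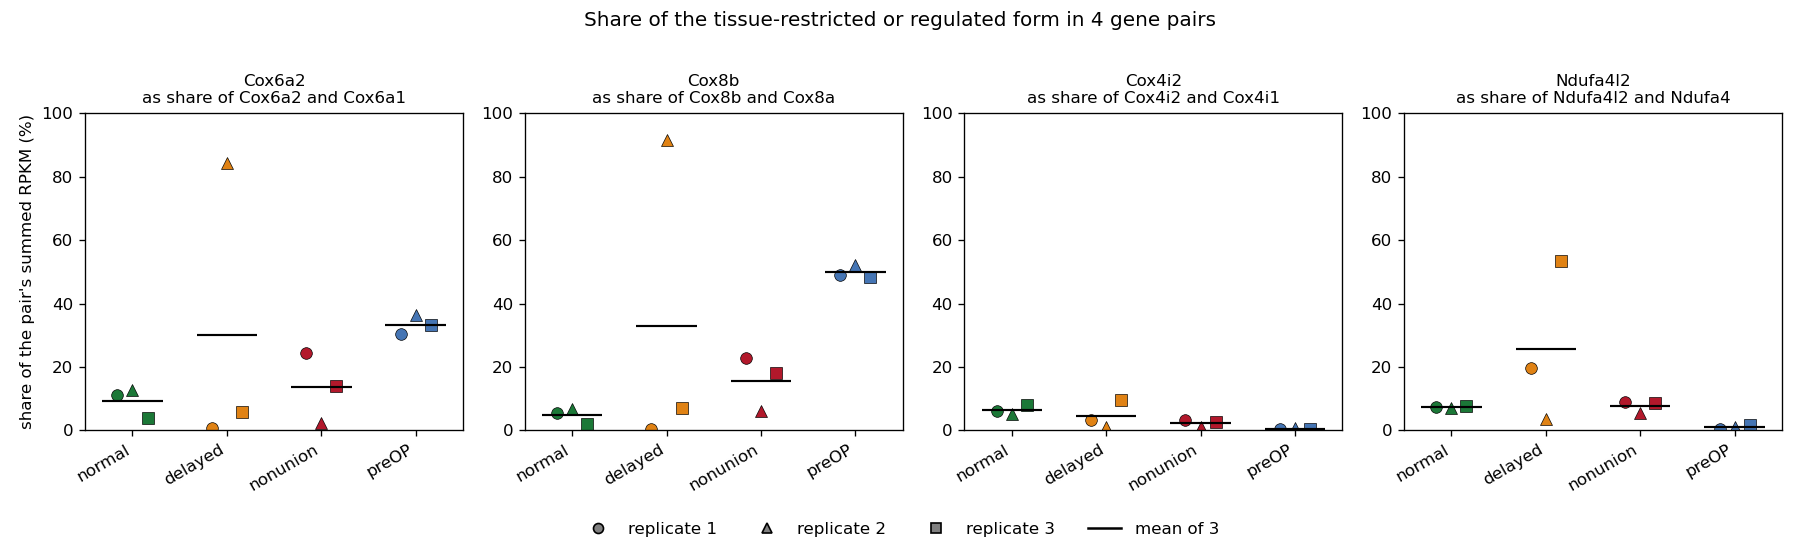
Percent of the summed RPKM of each isoform pair taken by Cox6a2, Cox8b, Cox4i2 or Ndufa4l2 (vertical axis) by group, with a point for each library and a line for the mean of 3. Cox8b and Cox6a2 are high in preOP and in delayed 2, and Cox4i2 and Ndufa4l2 are low in preOP.

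Delayed against normal hematoma asks how the wider defect differed from the one that heals normally. Of 78 tested members, 6 fell in delayed and 0 rose by edgeR's quasi-likelihood test with Benjamini-Hochberg adjustment at 0.05. At an unadjusted p under 0.05 the counts were 23 and 0. No share of all genes is given at that threshold here or below, so such counts do not show a change of a gene list as a whole. The share called lower was 7.69%, against 4.45% of all genes called lower, 2.68% called higher and 7.13% called in either direction, and the median log2 fold change was -0.40 in the members and 0.02 in all genes. The 6 were spread over the chain, with 1 in complex I, 1 in complex III, 2 in complex IV and 2 in complex V, and 0 of the 4 complex II genes. Of the 2 in complex V, 1 was the inhibitor Atp5if1.

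Uqcrq, a small subunit of complex III that binds ubiquinone, was at 106, 225 and 103 RPKM in normal, 21.0, 26.3 and 21.7 in delayed, 27.8, 24.2 and 31.5 in nonunion and 19.3, 21.0 and 38.2 in preOP. The 3 normal libraries were all above the 9 others, and since the other number format belongs to the same 3 files, its part in this difference cannot be told apart from the group. Uqcrq fell by 2.74 log2 units (edgeR adjusted p = 0.00563, SE 0.33) in delayed. Cox8a was at 615, 1189.7 and 664 in normal and 239, 182 and 200.0 in delayed, and decreased by 2.32 log2 units (edgeR adjusted p = 0.00988, SE 0.34). Cox6a1, also of complex IV, was at 751, 1504 and 726 in normal and 284, 183 and 272 in delayed, and decreased by 2.30 log2 units (edgeR adjusted p = 0.0143, SE 0.39). In both genes all delayed libraries were below all normal libraries, and delayed 2, where the muscle forms were high, had the lowest level of the 3. Atp5if1, which blocks ATP synthase from running in reverse, was at 538, 840.0 and 424 in normal and 257, 200.1 and 234 in delayed.

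Atp5if1 fell by 1.71 log2 units (edgeR adjusted p = 0.0239, SE 0.34). The iron-sulfur subunit Ndufs7 of complex I, at 87.7, 198 and 74.7 RPKM in normal and 31.5, 60.0 and 38.2 in delayed, fell by 1.69 log2 units (edgeR adjusted p = 0.0369, SE 0.39). The ATP synthase delta subunit Atp5f1d, at 324, 621 and 266 in normal and 109.9, 189 and 156 in delayed, fell by 1.60 log2 units (edgeR adjusted p = 0.0403, SE 0.38). Of the 78 members, 15 had every delayed library below every normal one and 0 the reverse, against 20.4% and 16.1% of all genes. The share lower was thus near that of all genes. Uqcrq and Cox8a were called lower under all 16 other settings tried, Cox6a1 under 15, Atp5if1 under 9, Ndufs7 under 7 and Atp5f1d under 4.

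Markers of some other cells moved with these groups. Bone cell markers (8 genes) summed to a value between 18399 and 27581 CPM in normal, between 4177 and 15486 in delayed, between 4246 and 5263 in nonunion and between 2237 and 2502 in preOP, with Sp7 and Mepe at 0 in nonunion 2. By edgeR, 7 of these 8 were called lower in delayed and 5 in nonunion against normal, beside 4.45% and 1.48% of all genes. The sums do not give the order of each gene. In delayed against preOP, 1 of 8 (Col1a1) was called higher and 5 lower, beside 12.6% and 15.6% of all genes. In nonunion against preOP, 0 were higher and 5 lower, beside 13.5% and 14.9%. Neutrophil precursor markers (7 genes) summed to a value between 325 and 2081 CPM in normal, between 8.25 and 66.8 in delayed, between 4.59 and 14.4 in nonunion and between 2738 and 3200.1 in preOP, with Ltf at 0 in normal 1 and normal 2. By edgeR, 0 of 7 macrophage and 0 of 4 osteoclast markers were called in delayed or in nonunion against normal. The part of any of these cells in the members' differences was not tested.

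The promoter of Uqcrq is shown because it had the largest fall of the called members. Its window carries 1 ETS core, in capitals, as defined for Cox8a above.
Uqcrq (chr10:38089979-38090228, minus strand): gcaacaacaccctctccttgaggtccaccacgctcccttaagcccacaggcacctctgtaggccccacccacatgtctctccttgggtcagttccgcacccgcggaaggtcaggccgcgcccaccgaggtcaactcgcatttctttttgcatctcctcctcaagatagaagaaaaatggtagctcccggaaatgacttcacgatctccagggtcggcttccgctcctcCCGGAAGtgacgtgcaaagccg

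A few libraries set the count of members lower in delayed. Without delayed 2 it was 17 of 78, which included 5 of the 6 genes above, where 3.24% of all genes were called lower in the same fit, and the members' median log2 fold change became -1.24; Atp5f1d was the one lost. Without delayed 2 the added genes were Atp5f1e, Ndufa4, Ndufa6, Ndufa7, Ndufb2, Ndufb4, Ndufb6, Ndufc2, Ndufs5, Ndufs8, Ndufv2 and Uqcr10. Without normal 2 the count was 3 (Uqcrq, Cox8a and Cox6a1), beside 1.48% of all genes, and the median 0.06. Without both, it was 7, beside 1.33% of all genes, with a median of -0.73 and 77 of 78 members below 0. The count was 3 without normal 1, without normal 3 or without delayed 1, and 2 without delayed 3, where 1.3%, 1.14%, 0.981% and 1.34% of all genes were called lower. DESeq2 called 14 members lower and 0 higher, beside 8.54% and 7.78% of all genes.

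**Figure D4:**
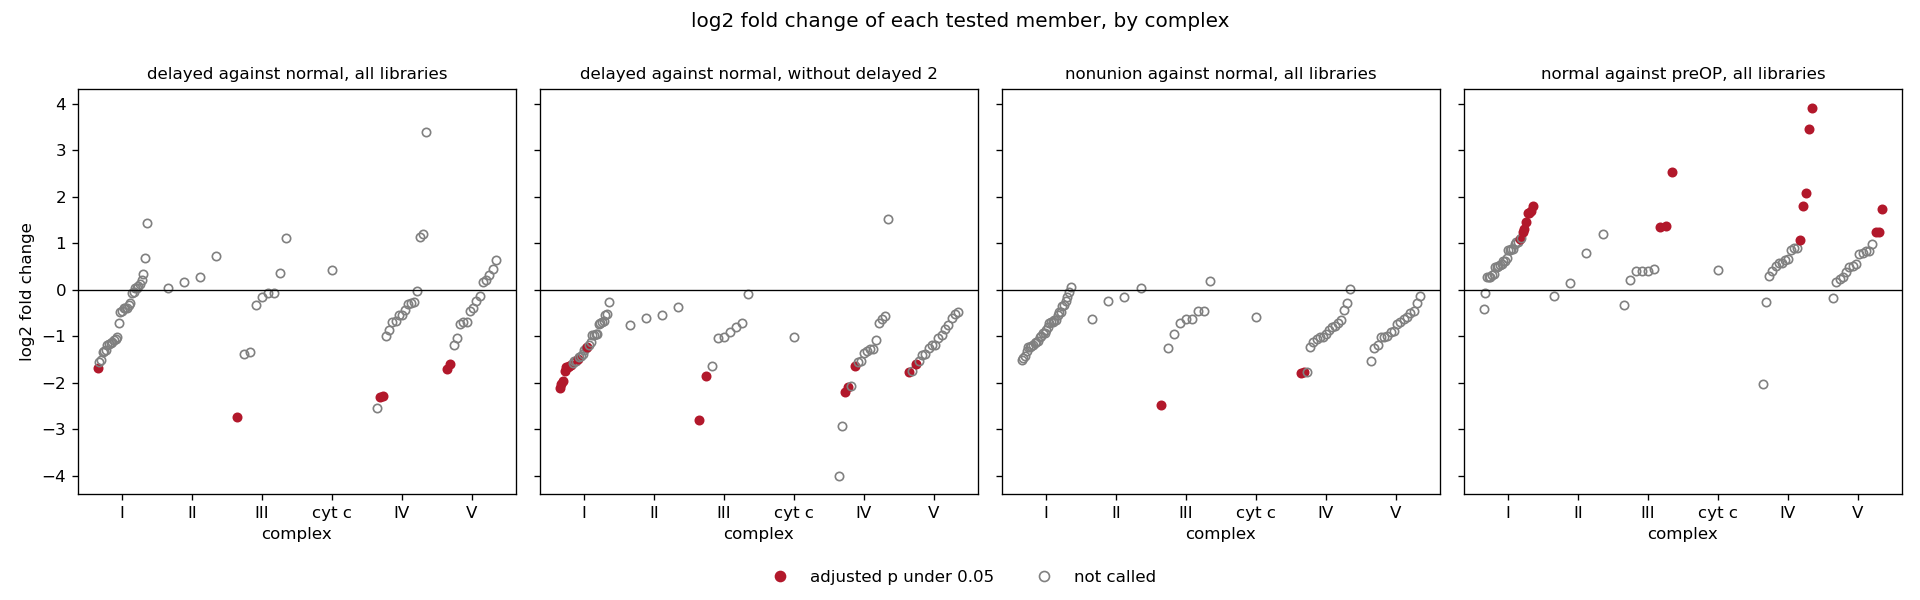
Log2 fold change (vertical axis) of each tested member by complex (horizontal axis) for delayed against normal with all libraries and without delayed 2, nonunion against normal, and normal against preOP, with members called by edgeR filled. Called members are all below 0 in the first 3 panels and all above 0 in the last.

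In nonunion against normal, complexes III and IV held the called members. Of 78 members, 3 fell and 0 rose (edgeR, adjusted p under 0.05), and 24 and 0 passed at an unadjusted p under 0.05. This is 3.85% lower, against 1.48% of all genes called lower, 0.890% called higher and 2.37% in either direction, and the median was -0.79 in the members and -0.03 in all genes, with 74 of 78 members below 0. Uqcrq fell by 2.48 log2 units (edgeR adjusted p = 0.0116, SE 0.33). Cox6a1, at 305, 266 and 445 RPKM in nonunion, fell by 1.80 log2 units (edgeR adjusted p = 0.046, SE 0.38). Cox8a, at 241, 260.2 and 369, fell by 1.77 log2 units (edgeR adjusted p = 0.0329, SE 0.34). These levels were all below those of the 3 normal libraries. Atp5if1, at 265, 162 and 327 RPKM, had a log2 difference of -1.54 and missed the threshold (edgeR adjusted p = 0.0501).

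In this comparison 33 members had all nonunion libraries below all normal ones and 1 the reverse, against 15.5% and 14.1% of all genes. By complex the medians were -0.87 in complex I, -0.21 in complex II, -0.63 in complex III, -0.97 in complex IV and -0.82 in complex V. The count was 4 without delayed 2, 1 (Uqcrq) without normal 2 or nonunion 2, 1 also without normal 1, normal 3, delayed 1 or delayed 3, and 0 without nonunion 1 or nonunion 3. DESeq2 called 4 lower, beside 5.17% of all genes. The share of all genes called lower was 2.3% without delayed 2, 0.464% without normal 2 and 0.726% without nonunion 2. Both comparisons use the same 3 normal libraries, so they are not independent.

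Nonunion against delayed showed no called member in edgeR, and 0% of all genes were called. At an unadjusted p under 0.05, 1 member was lower and 0 higher. DESeq2 called 0, beside 1.19% of all genes higher and 0.281% lower. The 1 was Ndufa4l2, at 31.2, 34.6 and 135 RPKM in delayed and 18.3, 12.3 and 25.1 in nonunion, with a log2 difference of -1.85 (SE 0.59) and an edgeR adjusted p of 0.545. Its nonunion libraries were all below its delayed ones, and 1 member had the reverse, against 3.32% and 5.60% of all genes. The members' median was -0.34, against -0.05 in all genes, and it turned to 0.40 without delayed 2.

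Normal hematoma against preOP bone had the most calls, among the members and among all genes. Of 78 members, 19 rose and 0 fell (edgeR, adjusted p under 0.05), which is 24.4% higher, against 20.5% of all genes called higher, 22.1% called lower and 42.6% in either direction. The members' share called higher was thus near that of all genes. At an unadjusted p under 0.05, 24 were higher and 0 lower. DESeq2 called 24 higher and 0 lower, beside 24.9% and 23.1% of all genes. The rise was called in 8 of 31 members of complex I, 0 of 4 of complex II, 3 of 9 of complex III, 5 of 17 of complex IV and 3 of 16 of complex V. The median log2 fold change was 0.64 in the members and -0.09 in all genes.

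The largest rises were in the restricted complex IV forms. Cox4i2 was at 36.3, 63.3 and 39.8 RPKM in normal and 2.54, 4.23 and 3.49 in preOP, and rose by 3.92 log2 units (edgeR adjusted p = 0.00078, SE 0.62). Ndufa4l2 was at 22.8, 36.7 and 20.2 in normal and 1.43, 2.60 and 3.78 in preOP, and rose by 3.45 log2 units (edgeR adjusted p = 0.00162, SE 0.62). Uqcrq, Cox8a and Cox6a1 were the next largest. Uqcrq rose by 2.53 log2 units (edgeR adjusted p = 0.000516, SE 0.37), Cox8a by 2.08 log2 units (edgeR adjusted p = 0.000588, SE 0.31) and Cox6a1 by 1.81 log2 units (edgeR adjusted p = 0.00245, SE 0.35). Of complex I, Ndufs5 was at 319.9, 508 and 262 RPKM in normal and 125, 137 and 105 in preOP and rose by 1.79 log2 units (edgeR adjusted p = 0.0038, SE 0.38).

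The other 13 called members rose by between 1.07 (Cox6b1) and 1.74 (Atp5f1d) on the log2 scale: Ndufa2, Ndufa7, Ndufa12, Ndufa13, Ndufb2, Ndufb6 and Ndufs8 of complex I, Uqcr10 and Uqcr11 of complex III, Cox6b1 of complex IV, and Atp5f1d, Atp5f1e and Atp5mc2 of complex V. None of the 19 overlapped between the groups, but they were called on these same libraries, so this adds no support. Of the 78 members, 40 had all normal libraries above all preOP ones and 2 the reverse, against 30.5% and 36.4% of all genes. Without normal 2, 11 rose (Atp5f1d, Atp5mc2, Cox4i2, Cox6a1, Cox8a, Ndufa2, Ndufa4l2, Ndufb6, Ndufs5, Ndufs8 and Uqcrq), beside 17.1% of all genes, and the median was 0.27. Without delayed 2, which is in neither group compared but shares the scaling and the estimate of spread, 35 rose, beside 24.9% of all genes, and all 19 were among them.

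In delayed against preOP only a few members moved. Of 78, 2 rose and 1 fell (edgeR, adjusted p under 0.05), or 2.56% and 1.28%, against 12.6% and 15.6% of all genes (28.2% in either direction), and 4 and 2 passed at an unadjusted p under 0.05. Ndufa4l2 rose by 4.63 log2 units (edgeR adjusted p = 0.000691, SE 0.65) and Cox4i2, at 17.1, 12.1 and 51.9 RPKM, by 2.91 log2 units (edgeR adjusted p = 0.00468, SE 0.59). Both were above every preOP library in all delayed libraries. All delayed libraries were above all preOP ones in 4 members and below in 3, against 21.9% and 30.1% of all genes. Atp5if1, at 403, 439 and 661 in preOP, fell by 1.22 log2 units (edgeR adjusted p = 0.0195, SE 0.34). Without delayed 2, Atp5if1 was no longer called and the muscle forms were: Cox8b fell by 4.78 (edgeR adjusted p = 0.0101) and Cox6a2 by 4.09 (edgeR adjusted p = 0.0285) on the log2 scale. With it, Cox8b had a difference of 1.38 (SE 1.60) and Cox6a2 of 0.89 (SE 1.52). DESeq2 called 5 (4 higher, 1 lower, beside 18.4% and 16.3% of all genes). By edgeR, 9 were called without normal 2 and delayed 2 (2 higher, 7 lower, beside 19.2% and 16.3% of all genes).

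Nonunion against preOP likewise had few calls. Here 2 of 78 rose and 1 fell (edgeR, adjusted p under 0.05), against 13.5% and 14.9% of all genes (28.4% in either direction). Ndufa4l2 rose by 2.84 log2 units (edgeR adjusted p = 0.00606, SE 0.61) and Cox4i2, at 20.9, 6.65 and 19.2 RPKM, by 2.19 log2 units (edgeR adjusted p = 0.0164, SE 0.58). Atp5if1 fell by 1.00 log2 units (edgeR adjusted p = 0.0447, SE 0.33). The Atp5if1 call was lost in 15 of 19 other settings, among them DESeq2 size factors, the fit without nonunion 2 and each fit that left out a preOP library, with a difference between -1.14 and -0.64 throughout. The Cox4i2 call was lost without preOP 1 or preOP 3. All nonunion libraries were above all preOP ones in 9 members and below in 7, against 21.0% and 28.0% of all genes. Without normal 2 and delayed 2, 6 rose and 2 fell, beside 20.2% and 18.2% of all genes. The median over members was -0.02, and with DESeq2 size factors it was 0.06, so it had no stable sign. The 3 comparisons with preOP share its libraries.

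The Ndufa4l2 promoter is shown because the gene rose against preOP in all 3 hematoma groups. The hypoxia response core ACGTG, which HIF-1 binds, was searched on both strands and was not found in these 250 bases.
Ndufa4l2 (chr7:65241919-65242168, plus strand): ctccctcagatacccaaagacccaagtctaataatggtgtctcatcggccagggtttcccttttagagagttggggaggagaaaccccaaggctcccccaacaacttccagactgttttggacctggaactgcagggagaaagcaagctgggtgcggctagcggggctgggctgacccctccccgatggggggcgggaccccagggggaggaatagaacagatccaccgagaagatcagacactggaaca
The absence of these letters from this window says nothing of sites elsewhere.

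**Figure D5:**
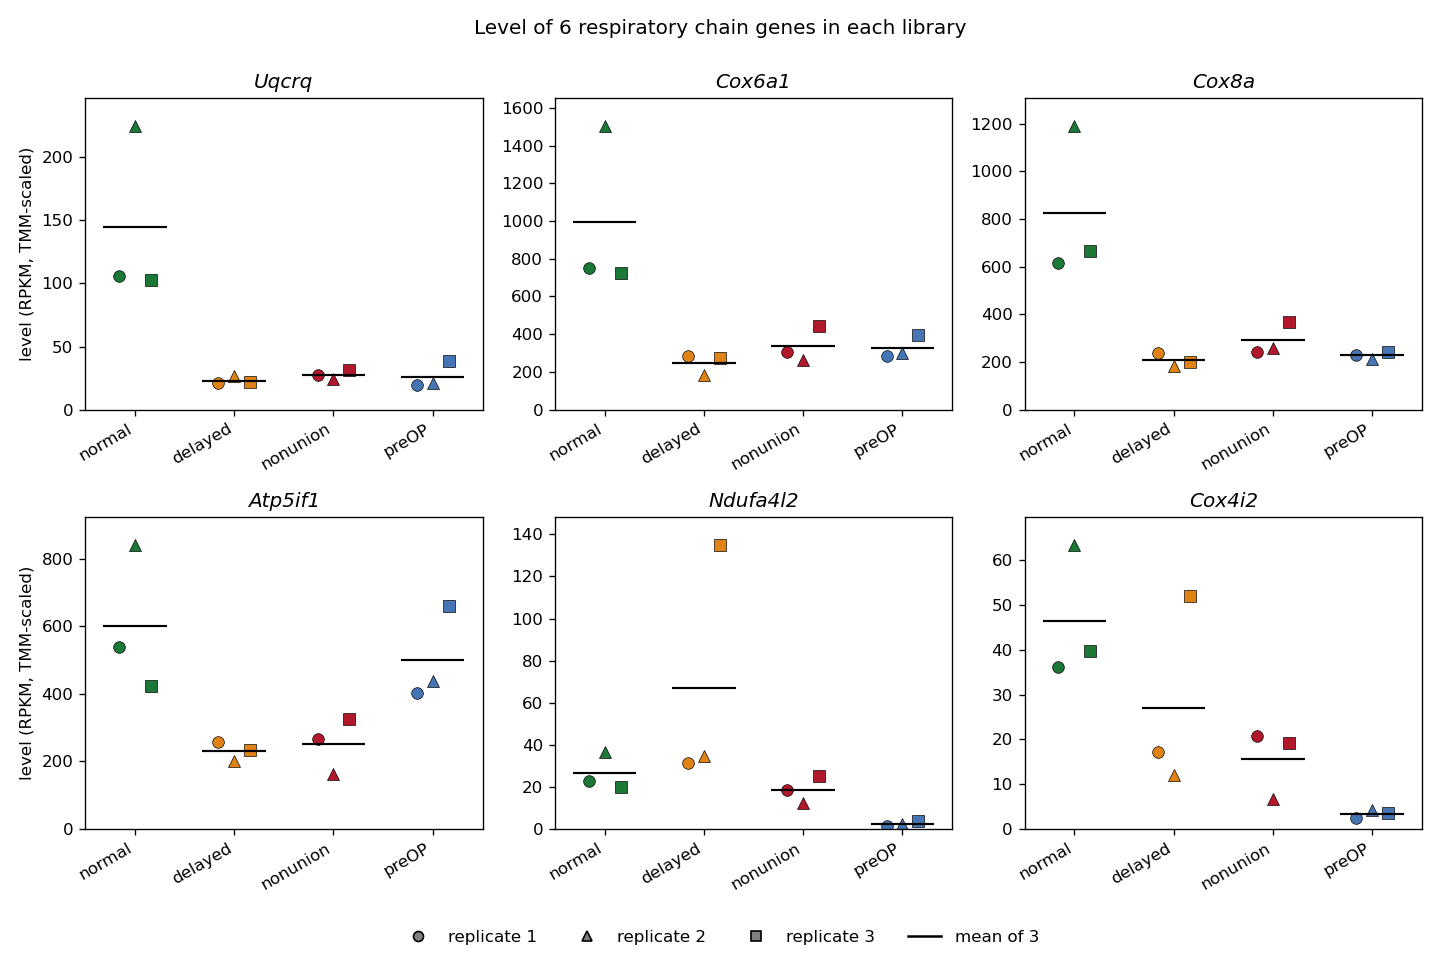
Level in RPKM (vertical axis) of Uqcrq, Cox6a1, Cox8a, Atp5if1, Ndufa4l2 and Cox4i2 by group, with a point for each library and a line for the mean of 3. Uqcrq, Cox6a1 and Cox8a are highest in the 3 normal libraries, and Ndufa4l2 and Cox4i2 are lowest in the 3 preOP libraries.

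Some subunits that carry electrons were looked at one by one, chosen after their values had been seen. In complex I, edgeR called the iron-sulfur subunit Ndufs7 lower in delayed against normal, as given above, and Ndufs8 higher in normal against preOP. Ndufs8, which holds iron-sulfur clusters, was at 93.2, 226 and 103 RPKM in normal, 33.0, 93.0 and 40.2 in delayed, 64.0, 44.8 and 64.5 in nonunion and 41.7, 47.0 and 55.7 in preOP, so normal lay above the 9 other libraries, and it rose by 1.69 log2 units (edgeR adjusted p = 0.0103, SE 0.44) against preOP. At an unadjusted p under 0.05, Ndufs7 and Ndufs8 were both lower in delayed and in nonunion against normal, and DESeq2 called both lower in delayed. The flavoprotein Ndufv1, which takes electrons from NADH, was at 73.2, 139 and 67.1 RPKM in normal, 51.2, 169.6 and 64.0 in delayed, 82.0, 69.2 and 85.6 in nonunion and 54.7, 71.7 and 80.9 in preOP. Ndufs1, the largest subunit, which holds iron-sulfur clusters, was at 42.1, 32.6 and 40.5 in normal, 34.0, 267 and 31.5 in delayed, 56.9, 29.1 and 42.5 in nonunion and 61.0, 52.2 and 43.4 in preOP. In both, delayed 2 was the highest of the 12 libraries and the other 11 lay close together except for normal 2 in Ndufv1.

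In complex III, Uqcrfs1, the Rieske iron-sulfur protein, was at 148, 212 and 149 RPKM in normal, 119, 510.4 and 101 in delayed, 135, 109 and 163 in nonunion and 165, 165 and 140.0 in preOP. In complex V the catalytic subunit Atp5f1b was at 534, 959 and 576 in normal, 512, 2432 and 512 in delayed, 723, 528 and 777 in nonunion and 849.8, 799 and 766 in preOP. Cox6c of complex IV was at 807, 1374 and 701 in normal, 524, 2156 and 470.1 in delayed, 631, 456 and 839 in nonunion and 747, 790.1 and 655 in preOP. Delayed 2 was again the highest library in each. Ndufv1, Ndufs1, Uqcrfs1, Atp5f1b and Cox6c, named here for their role or level after their values had been seen, were each called in 0 of 6 comparisons by edgeR.

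Complex II, which is also an enzyme of the citric acid cycle, had no called subunit. Of the 4 succinate dehydrogenase genes, 0 were called in any of the 6 comparisons by edgeR; at an unadjusted p under 0.05, 1 was higher in normal and 2 in delayed against preOP, with 0 elsewhere, and DESeq2 called the same numbers. Sdhb, its iron-sulfur subunit, was at 160.3, 243 and 133 RPKM in normal, 121, 393 and 108 in delayed, 137, 93.0 and 155 in nonunion and 82.2, 86.3 and 82.7 in preOP. Its differences from preOP were 1.19 (SE 0.45) in normal, 1.26 (SE 0.45) in delayed and 0.62 (SE 0.45) in nonunion, with edgeR adjusted p of 0.0538, 0.0593 and 0.339. Without delayed 2, Sdhb rose in normal by 1.29 (edgeR adjusted p = 0.00304) and Sdhc by 0.90 (edgeR adjusted p = 0.00917).

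The flavoprotein Sdha, which oxidizes succinate, was at 57.8, 72.5 and 63.9 RPKM in normal, 54.7, 243 and 47.4 in delayed, 71.6, 81.2 and 60.6 in nonunion and 73.7, 78.9 and 66.4 in preOP, so all libraries but delayed 2 lay in a narrow band. Sdhd was at 153 ± 61.9 (SD, n = 3) in normal and 146 ± 9.37 in preOP. Cycs was at 287, 342 and 214 in normal, 153, 955 and 140.2 in delayed, 267, 101 and 244 in nonunion and 241, 234 and 184 in preOP, and its group ranges overlapped. Cyc1, the heme subunit of complex III that hands electrons to Cycs, was at 107, 267 and 139 in normal, 90.2, 354 and 88.9 in delayed, 124, 72.1 and 143 in nonunion and 135, 132 and 143 in preOP. Cox7a2l, which helps to join complexes III and IV, was at 137, 245 and 165 in normal, 142, 148 and 117 in delayed, 115, 168 and 158 in nonunion and 142, 141 and 119 in preOP, and delayed 2 did not stand out in it. Cycs, Cyc1 and Cox7a2l were called by edgeR in 0 of 6 comparisons, with 0 at an unadjusted p under 0.05 and 0 called by DESeq2.

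Of the 80 members, 70 had a promoter in the RefSeq table. Motifs were searched on both strands of the 250 bases before the start and may overlap one another. The ETS core CCGGAAG was in 28.6% of the members' promoters and in 14.1% of those of 10317 tested genes (7.27% of all 33469). The core of the NRF-1 site, GCATGCG, was in 17.1% against 5.13% (2.93% of all), and the nuclear receptor site AAGGTCA, which estrogen-related receptors bind, in 8.57% against 2.71% (3.99%). The hypoxia response core ACGTG was in 22.9% against 21.3% (16.6%) and the E-box CANNTG in 52.9% against 58.0% (65.5%). The median GC content was 56.4% in the members' promoters and 59.6% in those of tested genes. These shares describe the sequences and were not tested.

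Of 47 assembly factors, which build the complexes and are not part of them, 38 were in the files. Ndufaf8, needed for complex I, fell by 3.40 (SE 0.41) on the log2 scale in delayed and by 3.12 (SE 0.41) in nonunion against normal, and Uqcc3, needed for complex III, fell by 1.52 in delayed. By edgeR no other factor was called among hematomas: 0 rose and 2 fell in delayed against normal, or 5.26% lower against 4.45% of all genes, and 0 rose and 1 fell in nonunion against normal, or 2.63% against 1.48%. DESeq2 called 3 and 2 lower, beside 8.54% and 5.17% of all genes, and 8 were lower in each at an unadjusted p under 0.05 in edgeR. In nonunion against delayed 0 were called by either tool, with 0 also at an unadjusted p under 0.05. Against preOP, 8 rose and 2 fell in normal, or 21.1% and 5.26% beside 20.5% and 22.1% of all genes, so the share that rose was near that of all genes. They were led by Ndufaf8 at 2.31 (SE 0.39), Uqcc2 at 1.92 (SE 0.52) and Ndufaf6, which was lower, at -2.19 (SE 0.57). Ndufaf6 also fell by 3.64 in delayed (1 factor higher, Ttc19 at 1.21 (SE 0.38), and 1 lower) and fell by 3.60 in nonunion (0 higher, 1 lower).

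Of 20 regulators of mitochondrial biogenesis, Perm1, a muscle coactivator, rose by 6.08 (SE 1.36) in delayed against normal, where it stood at 121 CPM in delayed 2 and at 4.68 and 4.48 in delayed 1 and 3. Perm1 was at 0.752, 0.612 and 0.451 CPM in normal and at 20.4, 20.1 and 21.5 in preOP, so delayed 1 and 3 lay between these groups. In normal against preOP it fell by 5.09 (SE 1.20, edgeR adjusted p = 0.00645). The coactivator Ppargc1a was at 18.0 CPM in delayed 2 and at most 1.84 elsewhere. Against preOP, Nrf1, the factor that binds the NRF-1 site, fell by 1.11 in normal, 1.14 in delayed and 1.09 in nonunion, and the GABP subunit Gabpb1 fell by 0.76 in delayed and 0.70 in nonunion. The nuclear receptor Esrra rose by 1.24 in normal and 0.94 in nonunion. Against preOP 19 regulators were tested. Those called were 3 higher and 3 lower in normal (beside 20.5% and 22.1% of all genes), 0 and 2 in delayed (beside 12.6% and 15.6%) and 1 and 2 in nonunion (beside 13.5% and 14.9%). Among hematomas 18 were tested. In delayed against normal, 1 (Perm1) was called higher and 0 lower, beside 2.68% and 4.45%. In both other comparisons 0 were called by edgeR or DESeq2. At an unadjusted p under 0.05 in edgeR, 1 was higher (nonunion against normal) and 1 lower (nonunion against delayed).

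None of the 16 genes of the tricarboxylic acid cycle was called in any of the 6 comparisons by edgeR. At an unadjusted p under 0.05, 2 were higher in delayed against normal, 1 higher and 1 lower in normal against preOP and 2 higher in delayed against preOP, with 0 in the other 3. DESeq2 called 1, 1 and 2, all higher, in the same 3 comparisons, beside 7.78%, 24.9% and 18.4% of all genes higher. Of 24 genes of glycolysis and the response to low oxygen, 4 rose and 0 fell in delayed against normal, or 16.7% higher beside 2.68% of all genes. In delayed against preOP 18 rose and 2 fell, or 75.0% and 8.33% beside 12.6% and 15.6% of all genes. Against preOP, that list had 10 higher and 2 lower in normal (beside 20.5% and 22.1% of all genes) and 7 and 2 in nonunion (beside 13.5% and 14.9%). By edgeR, 0 were called in nonunion against normal and against delayed, where 1 was higher and 8 were lower, respectively, at an unadjusted p under 0.05. In these 2 comparisons DESeq2 called 1 higher and 5 lower, beside 5.34% of all genes higher and 0.281% lower, respectively.

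The genes whose log2 CPM was most like that of Cox6a2 over the 12 libraries were Adprhl1 (Pearson r = 0.979), Smpx (0.973) and Myl11 (0.967). The gene most like Ndufa4l2 was P4ha2 (0.97). Outside complex I, the genes most like its summed level were members of other complexes: Cox6c (0.98), Atp5pf (0.976) and the complex III core protein Uqcrc1 (0.969). These values are descriptions over libraries that fall into 4 groups and share depth and scaling.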

How the data were processed

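RNA sequencing of 12 libraries was used. Per the submitters' processing notes, the tools were bcl2fastq 1.8.4, FastQC, Trimmomatic and Salmon and the build was rn6; the sources used here give no other version. Per the file headers, the deposited files hold estimated counts per RefSeq transcript (unscaled), TPM and effective lengths. TPM were not used for tests.

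After rounding, the estimated counts of all transcripts with 1 symbol were added up: 17367 of 18321 transcripts matched 16425 symbols in the RefSeq annotation, and 954 stayed single features. Total counts of 16808984 to 24325144 per library limit the precision. Genes were tested with edgeR 4.0.16 in R 4.3.3 (quasi-likelihood F-test, TMM, filterByExpr by group, two-sided, Benjamini-Hochberg adjusted p under 0.05, no fold threshold). Comparisons among hematomas used 1 fit of 9 libraries (12474 genes, 6 residual degrees of freedom), and those with preOP 1 fit of 12 libraries (12846 genes, 8). The SE is the log2 fold change over the square root of F and is approximate. Levels are TMM-scaled CPM or RPKM on deposited effective lengths. The method was tested on simulated data.

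Members and gene lists were chosen with earlier results of these data known. Named genes were isoform pairs, the up to 6 largest called changes each way, the 2 most abundant members per complex, Sdh genes, Cyc1, Cycs, and up to 3 called genes per pathway list; single electron-carrying subunits and the counts over further lists are additions. Alternatives were DESeq2 1.42.0, DESeq2 size factors, no filter, a replicate block, effective lengths as offsets and leaving out libraries; the fit without normal 2 and delayed 2 was added after seeing the data. Promoters are from RefSeq (GRCr8).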

Additional observations from a re-analysis of the deposited data

How the results depend on the processing

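Of 34 calls of a member in a comparison, 16 held under every alternative run and 0 reversed. In delayed against normal (6 called, all lower), DESeq2 called 14 lower, beside 8.54% of all genes. The fit without delayed 2 and nonunion 2 called 29 lower, beside 8.75%. Leaving out 1 library gave 2 to 17 lower, beside 0.981% to 6.08%. In nonunion against normal (3 called, all lower), the fit without delayed 2 and nonunion 2 called 1 lower, beside 2% of all genes. The fit without normal 2 and delayed 2 also called 1 lower, beside 0.963%. Leaving out 1 library gave 0 to 4 lower, beside 0.118% to 2.3%. In nonunion against delayed 0 were called under every alternative, leaving out 1 library included. In normal against preOP (19 called, all higher), the fit without delayed 2 and nonunion 2 called 45. Of these, 44 were higher and 1 lower, beside 30.1% and 28% of all genes. Leaving out 1 library gave 11 to 35, all higher, beside 15.4% to 26.1% of all genes higher. In delayed against preOP (3 called), DESeq2 called 5 (4 higher, 1 lower), beside 18.4% and 16.3% of all genes. The fit without delayed 2 and nonunion 2 called 6 (2 higher, 4 lower), beside 21.1% and 20.5%. The one without normal 2 and delayed 2 called 9 (2 higher, 7 lower), beside 19.2% and 16.3%. Leaving out 1 library gave 2 to 4, beside 7.46% to 19.5% of all genes higher and 8.52% to 17.4% lower. In nonunion against preOP (3 called), the fit without normal 2 and delayed 2 called 8 (6 higher, 2 lower), beside 20.2% and 18.2% of all genes. Leaving out 1 library gave 1 to 3, beside 8.32% to 18% of all genes higher and 9.09% to 16.7% lower. The cause of these differences was not tested; a fit that leaves out libraries has fewer samples. With effective lengths as offsets, 4 members were lower in delayed and 2 in nonunion against normal, beside 3.54% and 1.36% of all genes. That fit called 0 in nonunion against delayed and 15 higher in normal against preOP, the latter beside 20% of all genes. It called 2 higher and 1 lower in delayed against preOP, beside 12.6% and 15.7%. In nonunion against preOP it also called 2 higher and 1 lower, beside 13.6% and 14.9%. With a replicate block, 4, 1, 0, 17, 3 and 2 members were called in the same order of comparisons. The 4 and the 1 were lower, beside 2.32% and 0.898% of all genes, and the 17 were higher, beside 19.1%. The 3 were 2 higher and 1 lower, beside 11.1% and 15.2%, and the last 2 were higher, beside 11.9%. The labels link same-numbered libraries by a number only. The correlation of their deviations was -0.198 to 0.192 over 18 pairs, 4 of them over 0.1. A library correlated best with its own number in 17 of 36 cases. These values cannot show whether libraries of different groups shared an animal, and preOP bone was cut out when the 5.0 mm defects were made. DESeq2 size factors moved the median of all genes in delayed against preOP from -0.03 to 0.09. With 3 libraries a group, a p that missed the threshold does not show that levels were equal.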
